A study of Mus musculus with 31 samples.

Results

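Nkx2-1 binding was measured in mouse lung adenocarcinomas that keep the factor, and 29265 of the 29782 deposited binding sites were used here. They are all the peaks of the merged list on chromosomes 1 to 19, whatever their score or their marks. The 517 peaks left out lie on chromosome X (492) or on unplaced sequences (25). The sites were ordered by the score of the peak caller and cut into 10 groups of 2926 or 2927 peaks, called score deciles, and the summit of each peak was set against the broad domains, or islands, of 4 histone marks.

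Nkx2-1 is a homeodomain transcription factor that specifies the lung during development and maintains the identity of alveolar type II cells. Foxa1 and Foxa2 are forkhead factors that can open compact chromatin and share many lung sites with it. H3K4me1 and H3K27ac lie over enhancers, with H3K27ac marking those in use, H3K4me3 is dense over active promoters and sparse over many enhancers, and H3K27me3 is laid down by Polycomb repressive complex 2 over silent genes.

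The tumors came from mice of mixed 129 and B6 background, 4 to 7 months old, that were infected through the trachea with an adenovirus or a lentivirus and given tamoxifen. The labels do not say which sample got which virus. Tumors are labelled positive for Nkx2-1 or deleted for it, and the labels name neither the oncogene nor the promoter that drives the recombinase. The 31 samples include 9 input controls and 11 groups with peak or island files. The Nkx2-1 libraries and the Foxa1/2 libraries of positive tumors came from 2 male mice each. Each histone group came from 1 male and 1 female mouse, and in positive tumors 1 input served a Nkx2-1 library as well as the histone libraries of the male mouse. In every group the 2 deposited files were identical, so each group is 1 merged list. There is therefore no spread between replicates and no p-value below. Ranges in brackets are 95% intervals (Wilson for shares, Newcombe for differences of shares, order statistics for medians) that cover counting error only. The number of the 19 chromosomes that showed the same direction is given as a second description. Positions are on mouse build mm9, no gene annotation of that build was used, and sites are therefore named by position.

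The score ran from 60 to 3182 with a median of 162. A score of exactly 3100 was shared by 59 peaks, and the reason for this was not tested. The lowest decile spanned 60 to 71 and the top decile 674 to 3182. Ties crossed every boundary: 228 peaks shared the score of 71 at the first boundary, and 5 shared 674 at the last. The score also carried the width of the peak. Median peak width was 679 bp in the lowest decile and 1441.5 bp in the top decile, with a Spearman correlation of 0.82 across the peaks, which is a description of 1 list. For this reason the main trends with score are followed below by their values at equal peak width, where score deciles were made anew within each decile of width.

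The island lists of positive tumors held 71961 H3K27ac islands, 77529 H3K4me1 islands, 40685 H3K4me3 islands and 48977 H3K27me3 islands on these chromosomes. They covered 287, 323, 102 and 454 Mb. The reads counted in them came to 45040027, 35298187, 28275722 and 17598010. Total library depth is not given in the lists.

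Nearly all Nkx2-1 summits lay in chromatin with enhancer marks, and the share rose with the score for H3K27ac, H3K4me1 and H3K4me3. H3K27ac covered 26514 of the 29265 summits (90.6%). In the lowest decile it covered 84.9% (83.6 to 86.1), and in the top decile 94.2% (93.2 to 94.9). The difference was 9.26 percentage points (7.71 to 10.8), and the top decile was higher on 19 of 19 chromosomes. No reversal of the H3K27ac share occurred between neighbouring deciles, and the gain had nearly ended by decile 8, at 93.7%.

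H3K4me1 covered 28151 summits (96.2%), so little room for a trend was left. It stood at 94.7% (93.8 to 95.5) in the lowest decile and 98.5% (97.99 to 98.9) in the top decile, a difference of 3.79 points (2.88 to 4.74) that was above 0 on 18 of 19 chromosomes. The course was not even: the share was 96.3% in deciles 4 and 5, 95.6% in decile 6, and then climbed again. The summits without this mark, described further on, changed their surroundings over the same range.

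H3K4me3, the promoter mark, covered 19330 summits (66.1%) and differed along the whole score range. The share was 55.8% (54.0 to 57.6) in the lowest decile and 73.2% (71.6 to 74.8) in the top decile. That is a difference of 17.4 points (14.99 to 19.8), above 0 on 19 of 19 chromosomes. Decile 9, at 74.2%, was as high as the top decile within the intervals. The size of these differences and their order among marks depended on the islands and peaks kept. With the upper 50% of islands by read count they were 19.3 points for H3K27ac, 17.3 for H3K4me1 and 6.10 for H3K4me3, and with peaks of score 100 or more 4.64, 2.06 and 10.4.

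H3K27me3 was rare at Nkx2-1 sites, with 344 summits (1.18%). It covered 60 summits (2.05%, 1.60 to 2.63) in the lowest decile and 24 (0.82%, 0.55 to 1.22) in the top decile. The difference was -1.23 points (-1.87 to -0.63), below 0 on 17 of 19 chromosomes. Although these islands covered more of the genome than those of any other mark, they held the fewest summits, at 0.64% of islands with a summit against 25.6% for H3K27ac.

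**Figure D1:**
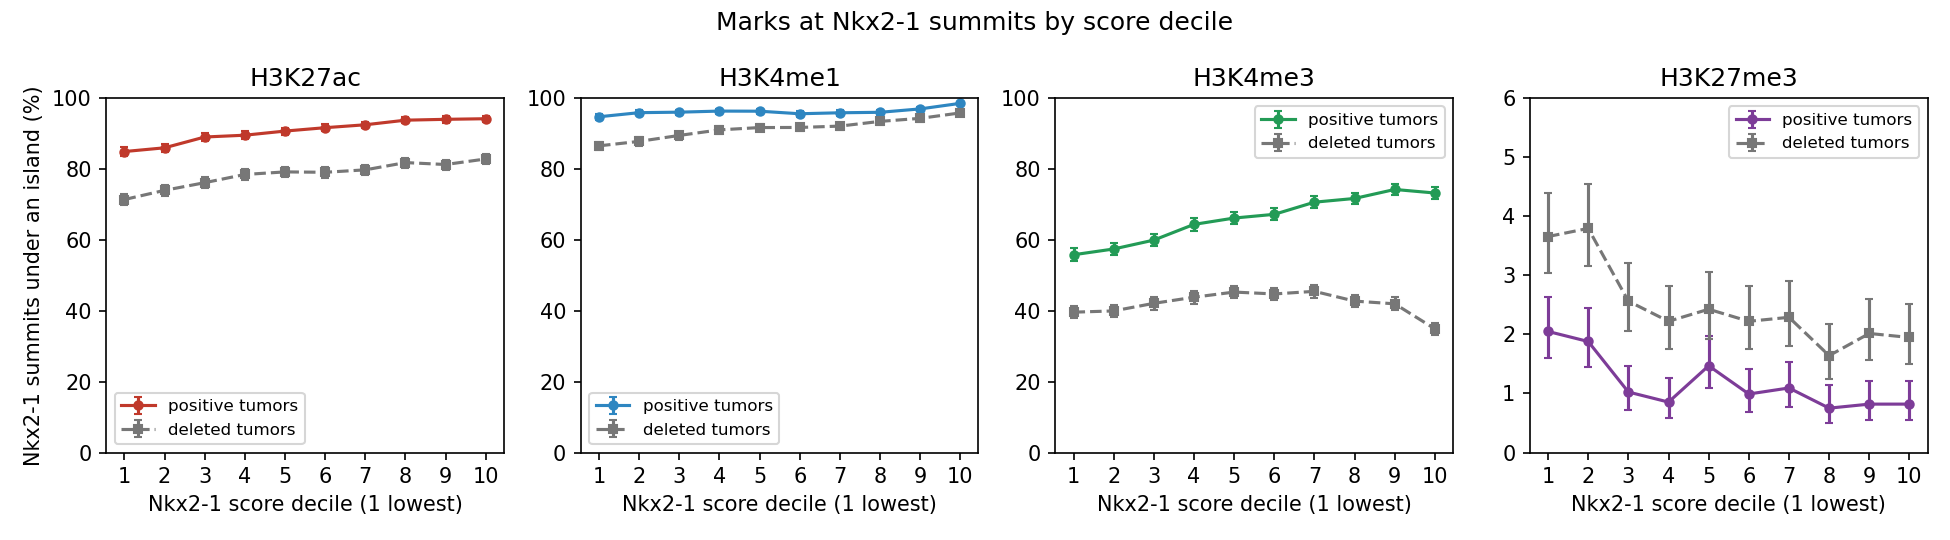
Share of Nkx2-1 summits under an island of each mark (y axis, %, the H3K27me3 panel on its own scale) by score decile (x axis), for islands of positive tumors (coloured) and of Nkx2-1-deleted tumors (grey); bars are 95% Wilson intervals. In positive tumors H3K4me3 goes from 55.8% to 73.2%, and in deleted tumors the same summits end at 34.9% in the top decile.

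Taken by combination, 18027 summits (61.6%) carried H3K27ac, H3K4me1 and H3K4me3 without H3K27me3. This combination made up 51.6% of the lowest decile and 70.3% of the top decile. H3K27ac with H3K4me1 alone, the usual pattern of a distal enhancer, fell from 30.8% to 22.5%, and H3K4me1 by itself from 8.75% to 3.55%. The 328 summits with no island of any mark were 3.11% of the lowest decile (91 peaks) and 0.34% of the top decile (10 peaks).

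At equal peak width several of these gradients had the other sign. Among peaks of matched width the H3K27ac share was 93.3% (92.3 to 94.2) in the lowest score decile and 85.8% (84.5 to 87.0) in the top decile, a difference of -7.52 points. H3K4me3 went from 74.8% to 52.8%, a difference of -22.0 points. Both differences were below 0 within all 10 deciles of width. H3K4me1 kept its direction, with 94.98% against 97.6% and a difference of 2.59 points, above 0 in 8 of the 10 width deciles. The H3K27me3 shares were 1.13% (0.80 to 1.58) and 1.23% (0.89 to 1.70), with intervals that overlap.

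Peak width carried the opposite gradient. With the score held equal, H3K27ac covered 80.7% (79.2 to 82.1) of the narrowest decile and 97.5% (96.8 to 97.98) of the widest decile. H3K4me3 covered 44.8% (43.1 to 46.7) and 87.9% (86.7 to 89.1). The rise of both marks with the score was thus seen where strong peaks were also wide, and not among peaks of matched width. What sets the width of a peak was not tested.

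**Figure D2:**
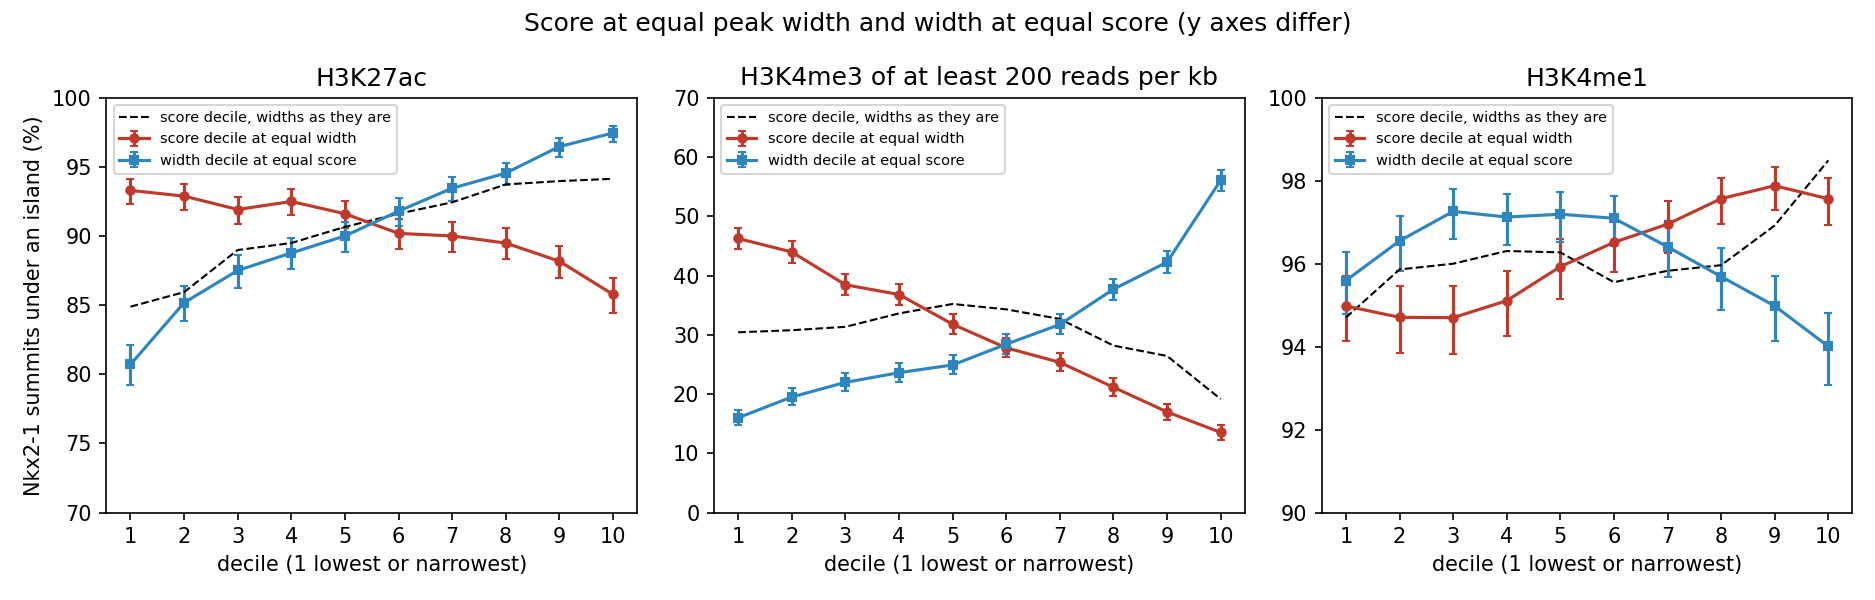
Share of Nkx2-1 summits (y axes, %, not starting at 0 for H3K27ac and H3K4me1) under H3K27ac, under H3K4me3 islands of at least 200 reads per kb and under H3K4me1, by score decile at equal peak width (red), by width decile at equal score (blue) and by score decile with widths as they are (dashed); bars are 95% Wilson intervals. The red and blue curves cross in all 3 panels, with H3K27ac falling from 93.3% to 85.8% by score and rising from 80.7% to 97.5% by width.

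The islands at strong sites were broader, and for H3K27ac denser. The H3K27ac island at a summit had a median width of 5800 bp (5600 to 6200) in the lowest decile and 12000 bp (11400 to 12600) in the top decile, a ratio of 2.07 (1.90 to 2.20). A base drawn evenly from all H3K27ac islands lies in an island with a median width of 6200 bp, so the weakest sites lay in islands of ordinary size. H3K27ac density rose from 162 reads per kb (158 to 167) to 214 reads per kb (210 to 219), a ratio of 1.33. Both ratios were above 1 on 19 of 19 chromosomes.

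H3K4me1 islands followed in width but hardly in density. Median width was 5800 bp (5400 to 6000) in the lowest and 9200 bp (8800 to 9600) in the top decile, a ratio of 1.59. Median density was 120 and 127 reads per kb, a ratio of 1.06 (1.04 to 1.08). Across single summits the relation was weak: the Spearman correlation of score with island width was 0.21 for H3K27ac and 0.14 for H3K4me1, over 26514 and 28151 summits that partly share islands.

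Once peak width was held equal, the H3K27ac width ratio shrank and the other ratios changed direction. The H3K27ac width ratio was 1.08 and its density ratio 0.81. The H3K4me1 width ratio was 0.75 and its density ratio 0.91.

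H3K4me3 islands behaved differently from both. Their median width at the summit was 3000 bp in the lowest and in the top decile, but 3600 and 2200 bp at equal peak width, a ratio of 0.61. Their median density fell from 252 reads per kb (220 to 278) to 78.0 reads per kb (75.0 to 81.7), a ratio of 0.31 (0.28 to 0.36), below 1 on 19 of 19 chromosomes. It was lower still at equal peak width, with a ratio of 0.21. With peak widths as they are, strong Nkx2-1 sites were thus more often under H3K4me3, but under sparse H3K4me3. At equal peak width they were less often under H3K4me3, as given above.

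The density of H3K4me3 islands had a sparse and a dense mode. Of the summits under H3K4me3 in the top decile, 27.7% lay in islands of 45.3 to 64.0 reads per kb. In the lowest decile 20.7% lay in islands of 362 to 512 reads per kb. Few lay between: 4.59% of lowest-decile and 5.42% of top-decile summits under H3K4me3 were in islands of 128 to 181 reads per kb. A split at 200 reads per kb, chosen after seeing this distribution, separates low-density from high-density islands, and splits at 150 and 300 gave differences within the intervals of those below.

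Between the lowest and the top decile, low-density H3K4me3 rose and high-density H3K4me3 fell. Up to decile 5 both classes rose, the low-density share to 30.9%. Low-density H3K4me3 covered 742 of 2927 summits in the lowest decile (25.4%, 23.8 to 26.96) and 1581 of 2926 in the top decile (54.0%, 52.2 to 55.8). The difference of 28.7 points (26.3 to 31.1) was above 0 on 19 of 19 chromosomes, and was 17.4 points with the upper 50% of islands by read count. High-density H3K4me3 took another course, with 30.4% (28.8 to 32.1) in the lowest decile, 35.2% (33.5 to 36.97) in decile 5 and 19.2% (17.8 to 20.6) in the top decile. Its difference of -11.3 points (-13.5 to -9.07) was below 0 on 19 of 19 chromosomes. The median score was 213 over low-density H3K4me3, 152 over high-density H3K4me3 and 136 where the mark was absent.

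At equal peak width the differences were 10.7 points for low-density and -32.8 points for high-density H3K4me3. The first was above 0 in 8 of the 10 width deciles and below 0 in 2, and the second was below 0 in all 10. Among peaks of matched width, high-density H3K4me3 lay over 46.3% (44.5 to 48.1) of the lowest and 13.5% (12.3 to 14.8) of the top score decile. At equal score it lay over 16.01% of the narrowest and 56.1% of the widest peaks. Dense H3K4me3 was thus commoner at wide peaks of a given score and at weaker peaks of a given width.

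**Figure D3:**
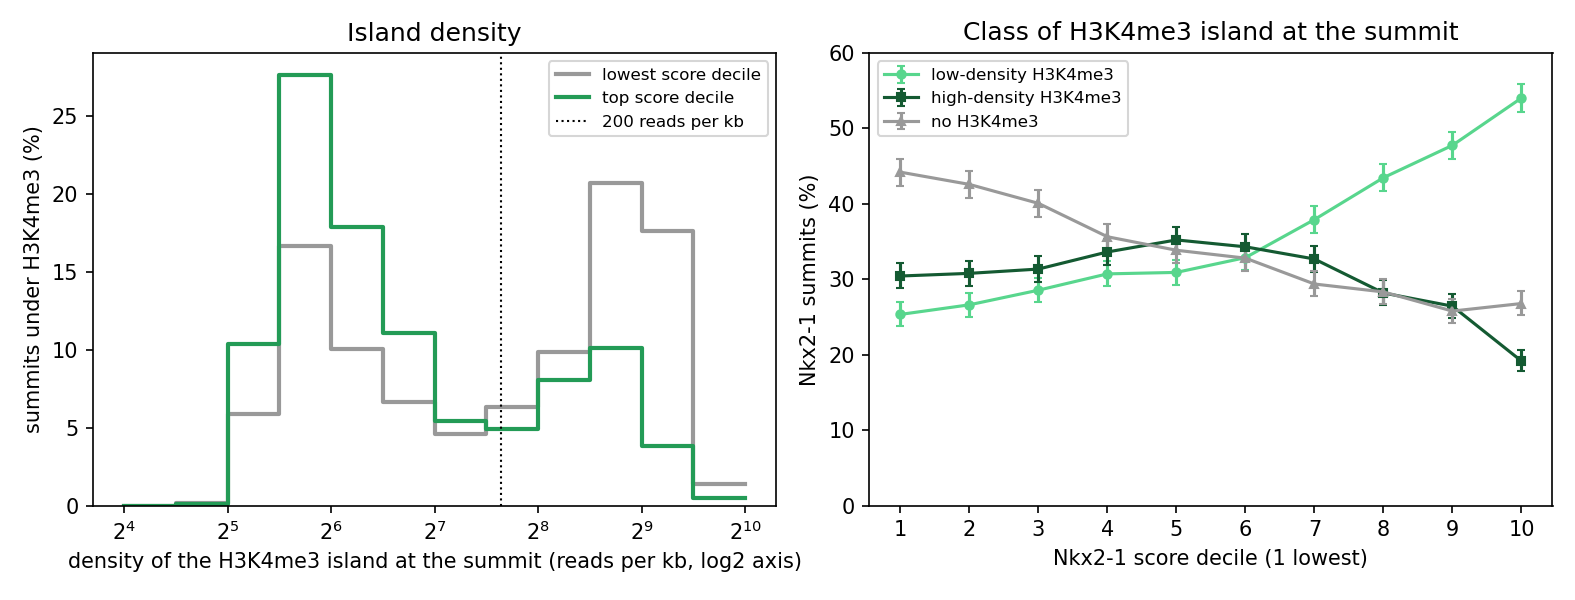
Left, distribution of the density of the H3K4me3 island at the summit (x axis, reads per kb, log2 axis; y axis, % of summits under H3K4me3) for the lowest and the top score decile. Right, share of Nkx2-1 summits (y axis, %) under low-density, high-density or no H3K4me3 by score decile (x axis), with 95% Wilson intervals; the low-density share goes from 25.4% to 54.0% and the high-density share from 30.4% to 19.2%.

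Sites bound by Foxa1/2 as well were concentrated among the strong ones. A Foxa1/2 peak of positive tumors covered 692 summits (23.6%, 22.1 to 25.2) in the lowest decile, 1463 (50.0%, 48.2 to 51.8) in decile 7 and 2397 (81.9%, 80.5 to 83.3) in the top decile. With peak width held equal the shares were 30.6% (28.9 to 32.3) in the lowest and 61.8% (60.04 to 63.6) in the top decile. The antibody target is labelled Foxa1/2, so the factors cannot be told apart.

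With peak widths as they are, high-density H3K4me3 differed little between the lowest and the top decile within either class of Foxa1/2 occupancy. No equal-width values are given for these classes. With a Foxa1/2 peak at the summit the high-density share was 16.3% in the lowest and 15.8% in the top decile, a difference of -0.52 points (-3.78 to 2.46). Without one it was 34.8% and 34.4%, a difference of -0.41 points (-4.81 to 4.18). In between it was higher, at 46.3% (43.8 to 48.9) in decile 7 without a Foxa1/2 peak and 20.6% (18.4 to 23.1) in decile 5 with one. A rise and a later fall of the dense class were thus present without Foxa1/2 as well. The rise of low-density H3K4me3 was present in both classes: 17.9 points (13.7 to 21.98) with a Foxa1/2 peak and 19.2 points (14.7 to 23.7) without. The share of summits with a Foxa1/2 peak grew over the same deciles, and its part in the difference of the dense class was not tested.

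The same steps on the 22611 Foxa1/2 peaks of chromosomes 1 to 19 gave gradients of the same sign. H3K27ac rose from 80.0% to 94.9% (14.9 points, 12.97 to 16.7) and H3K4me3 from 47.1% to 72.2% (25.1 points, 22.4 to 27.9). Low-density H3K4me3 rose from 26.2% to 56.5%, and high-density H3K4me3 went from 20.9% to 15.7%. With width held equal the H3K27ac and H3K4me3 differences were -1.29 and -6.77 points, and with the upper 50% of islands by read count 24.0 and 9.83 points. Gradients of this kind were thus also seen in the Foxa1/2 list, which has a peak at 13203 of the Nkx2-1 summits.

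Nkx2-1 summits lay towards the middle of their islands. A summit placed evenly within its own island falls in the central 50% of it in 50% of cases. The observed shares were 67.8% (67.2 to 68.4) for H3K27ac, 62.6% (62.0 to 63.2) for H3K4me1 and 66.0% (65.3 to 66.7) for H3K4me3. Each was above 50% on 19 of 19 chromosomes. Edges were sparsely used: the outer 10% of the half-width, where even placement puts 10%, held 2.23% of summits in H3K27ac islands and 2.74% in H3K4me1 islands.

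Stronger sites sat more centrally. In H3K27ac islands the central 50% held 63.0% (61.1 to 64.9) of summits of the lowest decile and 73.6% (72.0 to 75.3) of those of the top decile, a difference of 10.6 points (8.11 to 13.1), above 0 on 18 of 19 chromosomes. The difference was 9.75 points (7.25 to 12.2) in H3K4me1 islands and 11.3 points (8.22 to 14.3) in H3K4me3 islands. With peak width held equal the differences were 1.80, 10.4 and 5.07 points. H3K27ac lost most of its difference, and the sign of the small value left is uncertain. With peaks of score 100 or more the H3K27ac difference was 6.28 points, and with the upper 50% of islands by read count the H3K4me3 difference was 7.18 points.

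**Figure D4:**
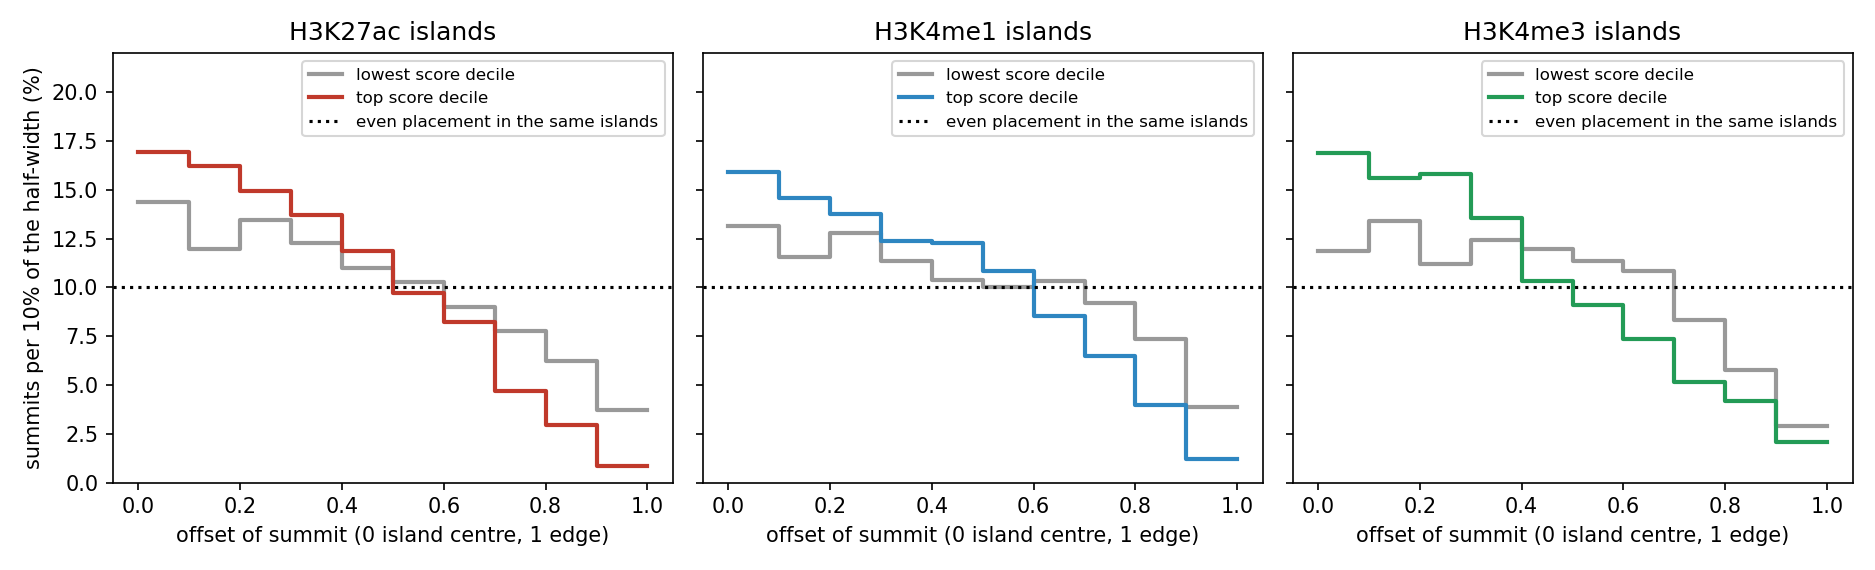
Offset of the Nkx2-1 summit from the island centre (x axis, as a share of the half-width, 0 centre and 1 edge) and share of summits per 10% of the half-width (y axis, %), for the lowest and the top score decile; the dotted line is the 10% of even placement in the same islands. In H3K27ac islands 16.9% of top-decile summits lie in the innermost bin and 0.83% in the outermost.

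Central placement depended on island size. In H3K4me1 islands of up to 2000 bp, 87.3% (86.0 to 88.5) of summits were in the central 50%, and in those over 10000 bp 49.4% (48.4 to 50.4), the value of even placement. H3K27ac islands went from 73.3% at up to 2000 bp through 78.6% at 2000 to 5000 bp to 58.3% over 10000 bp. With peak widths as they are, the score still separated sites in the large islands. No equal-width values are given for these size classes. In H3K27ac islands over 10000 bp the central share was 53.7% (50.0 to 57.3) in the lowest and 68.5% (66.2 to 70.7) in the top decile, and in H3K4me1 islands of that size it was 45.3% (42.0 to 48.7) and 57.9% (55.3 to 60.5).

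H3K27me3 islands were the exception. Of 344 summits, 156 were in the central 50% (45.3%, 40.2 to 50.6), and 53 were in the outer 10% of the half-width (15.4%, 11.98 to 19.6) where even placement gives 10%. No central placement was detectable at this number of summits.

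In H3K27ac islands with a pair of summits the stronger one was more often the central one. Among 2823 islands with exactly 2 summits of unequal score, the stronger summit was nearer the centre in 1611 (57.1%, 55.2 to 58.9), where equal placement gives 50%. The share was 54.1% (52.3 to 55.9) of 2929 such H3K4me1 islands and 54.3% (51.9 to 56.6) of 1756 such H3K4me3 islands. These are small departures, each with an interval that does not reach 50%. In islands with 3 or more summits the strongest was nearer the centre than the mean of the others in 55.4% (53.1 to 57.8) of H3K27ac, 52.3% (49.9 to 54.6) of H3K4me1 and 48.7% (44.6 to 52.8) of H3K4me3 islands.

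With island widths as they are, strong sites shared their island with other Nkx2-1 sites more often. H3K27ac islands of at least 2 summits held 43.1% (41.2 to 45.1) of the lowest-decile and 61.3% (59.5 to 63.1) of the top-decile summits under this mark. That is a difference of 18.2 points (15.5 to 20.8), above 0 on 19 of 19 chromosomes. H3K4me1 gave 41.9% and 56.9%, while H3K4me3 gave 30.4% and 29.9%. At equal peak width the H3K27ac difference was -0.39 points and the H3K4me1 difference -6.31 points, and the latter was 8.09 points with the upper 50% of islands by read count. Among H3K27ac islands of one size class the rise was not seen either. Over 10000 bp the shares were 87.4% (84.8 to 89.6) in the lowest and 86.7% (84.9 to 88.2) in the top decile. In islands of 5000 to 10000 bp they were 52.4% (48.5 to 56.2) and 36.4% (33.0 to 39.9), and in those of 2000 to 5000 bp 12.4% (10.3 to 14.9) and 5.60% (3.66 to 8.49). At these sizes strong sites shared their island less often.

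Of all H3K27ac islands, 18421 (25.6%) held at least 1 summit. Summits per kb rose from 0.036 in the narrowest to 0.110 in the widest decile of all H3K27ac islands, and from 0.020 in the least dense to 0.154 in the densest. The 232 islands with 6 or more summits had a median width of 35400 bp. A top-decile summit was present in 69.0% (62.7 to 74.6) of them, against 7.70% (7.27 to 8.16) of islands with 1 summit, a contrast that more summits per island raises by itself.

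Seen from the islands, strong sites were commoner per kb in dense H3K27ac and in sparse H3K4me3. The densest decile of H3K27ac islands held 0.021 top-decile summits per kb and the least dense 0.001. Weak sites shared this direction, with 0.012 and 0.0034 lowest-decile summits per kb, and at equal peak width the H3K27ac density ratio was 0.81, as given above. For H3K4me3 the order was turned, with 0.005 top-decile summits per kb in the densest decile and 0.035 in the least dense. Lowest-decile summits were spread almost evenly over H3K4me3 density, at 0.018 and 0.016 per kb.

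**Figure D5:**
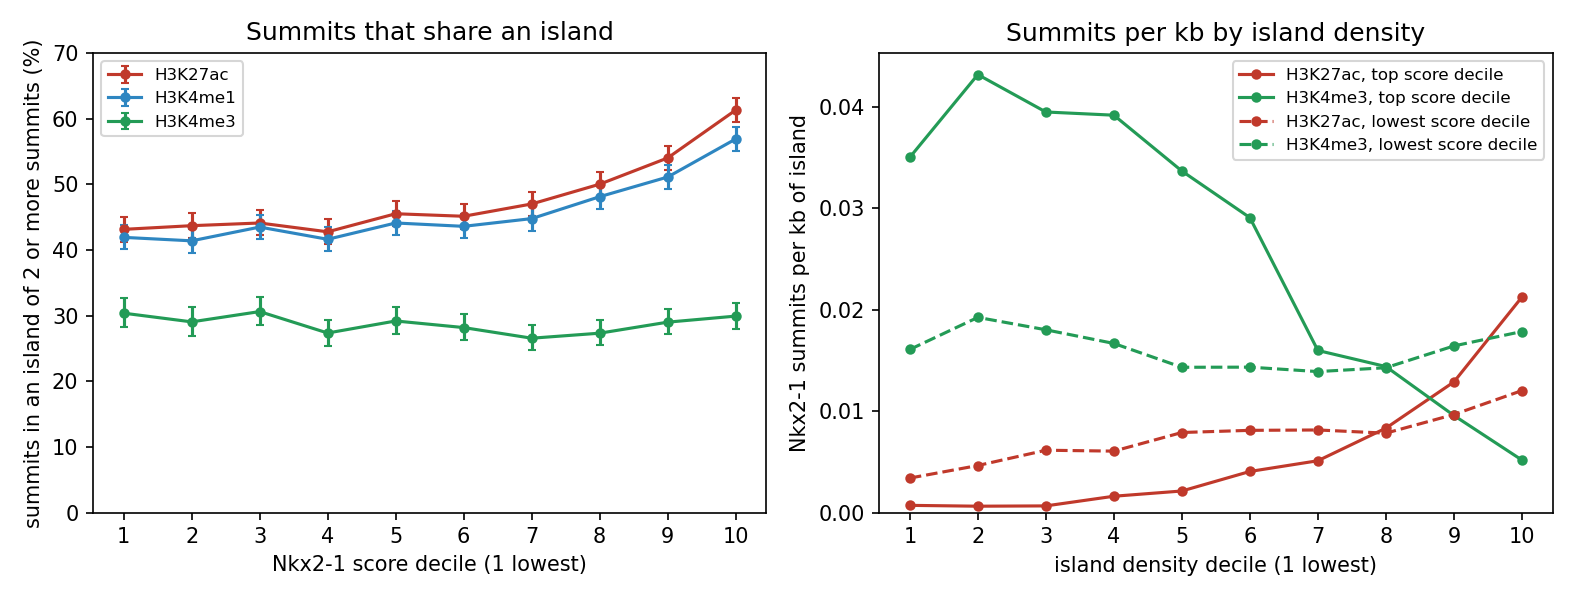
Left, share of summits under a mark whose island holds 2 or more Nkx2-1 summits (y axis, %) by score decile (x axis), with 95% Wilson intervals; H3K27ac goes from 43.1% to 61.3%. Right, Nkx2-1 summits of the top (solid) and the lowest (dashed) score decile per kb of island (y axis) by decile of island density (x axis); top-decile summits rise with H3K27ac density and fall with H3K4me3 density.

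The 3 H3K27ac islands with the most summits showed these features only in part. The H3K27ac island with the most summits was chr7:119365201-119481400, 116200 bp wide with 316 reads per kb. It held 21 Nkx2-1 summits with scores from 81 to 1637, of which 3 were in the top decile. Of these 21, 11 were under low-density and 2 under high-density H3K4me3, 12 were in its central 50% and 10 had a Foxa1/2 peak. In deleted tumors H3K27ac still covered 96.7% of this region and all 21 summits, while H3K4me3 cover went from 48.4% to 5.34%.

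The next was chr15:77625401-77683600, 58200 bp wide, with 15 summits of score 62 to 762. High-density H3K4me3 covered 11 of its summits, and H3K4me3 cover was 79.7% in positive tumors and 46.7% in deleted ones. The island chr6:31008801-31070600, 61800 bp wide, held 14 summits of score 95 to 1027, with 9 under low-density H3K4me3. Its H3K4me3 cover was 64.1% and 35.6%. H3K27ac of deleted tumors covered 99.7% and 99.4% of these regions.

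Within the H3K27ac islands themselves, Nkx2-1 summits picked out the parts that also carried H3K4me3. In the lowest decile 63.1% (61.2 to 65.0) of summits in H3K27ac islands were under H3K4me3, against 43.2% for summits placed evenly in the same islands. In the top decile the observed share was 76.1% (74.4 to 77.6) and the even share 38.8%. The excess thus went from 19.9 points (18.0 to 21.8) to 37.2 points (35.6 to 38.8). At equal peak width it was 26.5 points in the lowest and 25.2 points in the top decile, and with the upper 50% of islands by read count 11.7 and 20.1 points.

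H3K4me3 in H3K4me1 islands gave a like excess, with 66.2% (65.6 to 66.7) of summits under it against 38.2% evenly placed. H3K4me1 in H3K27ac islands covered 97.2% of summits against 87.0% evenly placed. H3K4me1 in H3K4me3 islands covered 96.4% (96.1 to 96.6) against 98.4%, a small deficit at the summit itself. H3K27me3 in H3K27ac islands covered 0.53% (0.45 to 0.62) against 0.83%.

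The 344 summits in H3K27me3 islands lay under each of the other marks more often than summits placed evenly in the same islands. H3K4me1 covered 89.5% (85.8 to 92.3) of them, against 37.9% for even placement. H3K27ac covered 40.7% (35.6 to 46.0) against 25.2%, and H3K4me3 49.7% (44.5 to 55.0) against 23.2%. All 3 marks together with H3K27me3 were found at 111 of these summits, and H3K27me3 alone at 32. The lists come from whole tumors, so overlap of active and repressive marks on 1 chromosome and in different cells cannot be told apart.

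Summits that lacked a mark were of different kinds at the bottom and the top of the score range. Of the 155 lowest-decile summits without H3K4me1, 21.3% (15.6 to 28.4) had H3K4me1 islands on both sides within 1000 bp, and 27.7% lay under high-density H3K4me3. Of the 122 such summits in decile 7, 73.0% (64.5 to 80.0) were flanked in this way and 89.3% (82.6 to 93.7) lay under high-density H3K4me3. Such gaps in H3K4me1 over dense H3K4me3 are known from active promoters. In the top decile 44 summits lacked H3K4me1, of which 56.8% were flanked.

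The 2751 summits without H3K27ac mostly kept H3K4me1, at 76.7% in the lowest decile (of 442) and 92.4% in the top decile (of 171). H3K27ac lay within 500 bp of 19.5% (16.04 to 23.4) of them in the lowest decile and 48.0% (40.6 to 55.4) in the top decile. Strong sites without the mark at the summit were therefore more often beside it.

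Single sites illustrate the range. The highest score, 3182, was at chr16:5134089-5137516, in the middle of a 14800 bp H3K27ac island (236 reads per kb) and under a 2800 bp H3K4me3 island of 50.4 reads per kb. The next were chr9:89929806-89932030 (score 3178) and chr7:136814741-136816675 (score 3172). Their H3K27ac islands were 23000 and 30600 bp wide, with densities above 98.7% and 99.9% of that list, and their H3K4me3 islands had 48.0 and 52.6 reads per kb. All 3 sites had H3K4me1 and a Foxa1/2 peak, and none had H3K27me3.

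The 3 highest scores without H3K27ac, H3K4me1 or H3K4me3 at the summit were lower, and none of them had a Foxa1/2 peak. The first, chr19:27211156-27212327 (score 2257), lay 136 bp from a H3K4me1 island and 30665 bp from H3K27ac. The second, chr11:90286226-90287709 (score 1149), had no active mark within 5000 bp, the nearest being H3K4me1 at 5787 bp, while H3K27me3 lay 987 bp away. The third, chr15:100948145-100949494 (score 1000), was 47 bp from the edge of H3K27ac and H3K4me1 islands.

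Of the peaks with H3K27me3 the highest score, 3100, was at chr17:39979660-39984035. There H3K4me1, H3K4me3 and H3K27me3 islands all had the same ends, 39979801 and 39986000. Their densities of 830, 823 and 706 reads per kb exceeded those of 99.9% of each list, and no H3K27ac island was found within 946301 bp. The median density of H3K27me3 islands at Nkx2-1 summits was 38.8 reads per kb, so this site is not typical of them. Whether its reads reflect binding and marks at this place was not tested. The second, chr2:147015743-147017216 (score 2889), lay in a 43000 bp H3K27me3 island with H3K4me1 and H3K4me3, and H3K27ac began 149 bp away. The third, chr8:90974271-90976966 (score 2411), lay in a 6400 bp H3K27me3 island of 28.0 reads per kb. That island overlapped an 11600 bp H3K27ac island of 418 reads per kb, which also covered the summit.

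The same summits were then set against the islands of Nkx2-1-deleted tumors, to see whether marks differed more at strong sites. These lists were shorter for the active marks, with 60744 H3K27ac, 65348 H3K4me1 and 30230 H3K4me3 islands, and about as long for H3K27me3, with 49382. They covered 223, 295, 62.5 and 448 Mb in this order, against 287, 323, 102 and 454 Mb in positive tumors. Reads counted in the H3K27ac islands of deleted tumors were 30746003, and in their H3K4me3 islands 19168762. Over all summits the share went from 66.1% to 42.1% for H3K4me3 and from 90.6% to 78.4% for H3K27ac. The part of the list-wide differences in the values below was not tested, so whether the changes are particular to Nkx2-1 sites cannot be told. In bulk tumors fewer marked cells and less mark per cell cannot be told apart.

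H3K4me3 differed most at the strongest sites. Its share in deleted tumors was 39.6% (37.8 to 41.4) in the lowest decile, 45.5% in decile 7 and 34.9% (33.2 to 36.6) in the top decile. The change from positive tumors was -16.2 points (-17.6 to -14.8) in the lowest and -38.3 points (-40.1 to -36.5) in the top decile. The top-decile change was the more negative on 19 of 19 chromosomes. At equal peak width the changes were -17.2 and -30.3 points, and with the upper 50% of islands by read count -9.63 and -27.3 points.

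The difference from positive tumors was larger in the sparse than in the dense islands, and in both it was larger in the top decile. Low-density H3K4me3 summits were under H3K4me3 of deleted tumors in 42.9% (39.3 to 46.5) of cases in the lowest decile and 34.2% (31.9 to 36.5) in the top decile. High-density summits were under it in 93.1% (91.3 to 94.6) and 81.5% (78.0 to 84.5). H3K27ac was present in deleted tumors at 98.1% of all high-density summits, 86.7% of low-density summits and 52.1% of summits without H3K4me3, against 98.2%, 96.7% and 77.4% in positive tumors. The parts of the shorter H3K4me3 list of deleted tumors and of the low island density itself in this were not tested.

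With peak widths and islands as they are, H3K27ac changed by a similar amount along the whole range. The change was -13.5 points (-14.9 to -12.1) in the lowest and -11.3 points (-12.6 to -10.1) in the top decile. The top-minus-lowest contrast was above 0 on 11 chromosomes and below 0 on 8. Among peaks of matched width the order was turned, with -7.75 points in the lowest and -19.2 points in the top decile. The upper 50% of islands by read count gave -19.7 points in the top decile and no less than -13.6 points in the lowest. With both settings the change was thus larger at strong sites. H3K4me1 changed by -8.20 points (-9.39 to -7.01) at weak and -2.70 points (-3.44 to -1.96) at strong sites. H3K27me3 was more frequent in deleted tumors in both, at 3.66% against 2.05% and at 1.95% against 0.82%.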

How the data were processed

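Peaks and islands came from ChIP-seq of tumors, as single-end reads of 40 to 50 nt per the labels. Per the submitters' processing notes the genome build was mm9 and the tools included Bowtie, MACS 1.4.2 and SICER 1.1, with no roles stated. Names of the deposited lists give p 1e-06 for peaks, and for islands 200 bp windows, FDR 0.01 and gaps of 200 bp for the H3K27ac and H3K4me3 lists, 600 bp for the other marks. They also mark the lists as merged, so libraries were combined before deposit. Each peak has a deposited score of a scale that no source used here states. Each island has a deposited read count, not normalized for depth, whose value per kb is called density here.

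A mark was present where an island covered the summit base. Offset is the distance of the summit from the island centre over the half-width. Expectations for summits shuffled within islands were computed exactly from island lengths. Score deciles broke ties by position in the genome. Sites named by position are the 3 with the highest score of all, without the 3 active marks and with H3K27me3, and the 3 H3K27ac islands with the most summits. The members, lists and comparisons were chosen with earlier results of these data known. Calculations used Python 3.11.15, numpy 2.4.6 and scipy 1.17.1, and were checked on simulated data. Sequences and gene names were not used here, since no mm9 reference was at hand.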

Additional observations from a re-analysis of the deposited data

How the results depend on the processing

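In the comparisons below, differences are percentage points of the top minus the lowest score decile and ratios are top over lowest, unless stated. No paired analysis was possible because each group is 1 merged list, and for the same reason no library could be left out. Leaving out each chromosome in turn moved none of 30 results beyond its interval (570 of 570 values). Using all chromosomes, leaving out the densest 0.1% of islands or the peaks under them, and density splits of 150 or 300 also moved none of those they were applied to. The splits, the removal of peaks under the densest islands, and the equal-width values for position, second marks, deleted tumors and Foxa1/2 were added after seeing the data.

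Score deciles made at equal peak width changed the sign of 10 results: H3K27ac share -7.52, H3K4me3 share -22.0, H3K27me3 share 0.11, H3K27ac density ratio 0.81, H3K4me1 width ratio 0.75, H3K4me1 density ratio 0.91, shared islands -0.39 (H3K27ac) and -6.31 (H3K4me1), and Foxa1/2 shares -1.29 (H3K27ac) and -6.77 (H3K4me3). The H3K27me3 share and the shared H3K27ac islands were so small at equal width that their signs are uncertain. Others moved without a change of sign. The H3K4me1 share was 2.59, the H3K27ac width ratio 1.08, and the H3K4me3 width and density ratios 0.61 and 0.21. Shared H3K4me3 islands gave -8.47, the central 50% gave 1.80 (H3K27ac) and 5.07 (H3K4me3), and H3K4me3 classes gave 10.7 (low) and -32.8 (high). H3K4me3 in H3K27ac islands exceeded even placement by 25.2 (top) and 26.5 (lowest). Deleted minus positive tumors gave -19.2 (H3K27ac, top), -7.75 (H3K27ac, lowest) and -30.3 (H3K4me3, top).

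Only the upper 50% of islands by read count gave shares of 19.3 (H3K27ac), 17.3 (H3K4me1) and 6.10 (H3K4me3). Width ratios were 1.72, 1.30 and 1.15, density ratios 1.21, 1.02 and 0.37, and shared islands 12.8, 8.09 and 6.15, in the same order. The central 50% exceeded even placement by 10.3 (H3K4me1) and 10.99 (H3K4me3), and differed by 13.7 and 7.18 between deciles. H3K4me3 in H3K27ac islands exceeded even placement by 20.1 (top) and 11.7 (lowest). Deleted minus positive tumors gave -19.7 (H3K27ac, top), -27.3 (H3K4me3, top) and -9.63 (H3K4me3, lowest). Low-density H3K4me3 gave 17.4, and Foxa1/2 gave 24.0 (H3K27ac) and 9.83 (H3K4me3).

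Peaks with a score of at least 100 gave shares of 4.64 (H3K27ac), 2.06 (H3K4me1), 10.4 (H3K4me3) and -0.23 (H3K27me3), and density ratios of 1.27 (H3K27ac) and 1.04 (H3K4me1). The central 50% exceeded even placement by 19.1, 13.8 and 17.2 (H3K27ac, H3K4me1, H3K4me3) and differed by 6.28 and 6.86 between deciles in the first 2. H3K4me3 in H3K27ac islands exceeded even placement by 22.9 (lowest), and the strongest summit was nearer the centre by 4.72 over 50. Deleted minus positive tumors gave -11.5 (H3K27ac, lowest) and -20.1 (H3K4me3, lowest). H3K4me3 classes gave 24.0 (low) and -13.6 (high), and Foxa1/2 gave 9.60 (H3K27ac) and 19.5 (H3K4me3).

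Islands joined up to 600 bp apart gave a H3K27ac density ratio of 1.24, excesses over even placement in the central 50% of 14.9 (H3K27ac) and 13.7 (H3K4me3), and 40.8 for H3K4me3 in H3K27ac islands (top). Cutting the score into 5 groups gave 2.43 for the H3K4me1 share, H3K27ac ratios of 1.86 (width) and 1.26 (density), shared islands of 14.2 (H3K27ac) and 12.4 (H3K4me1), and H3K4me3 classes of 24.9 (low) and -7.81 (high). The H3K4me3 share was 23.3 where islands touched the peak and 22.6 within 500 bp of the summit. In islands with 1 summit the central excess was 26.0, 21.6 and 23.1 (H3K27ac, H3K4me1, H3K4me3), and the H3K4me1 difference between deciles 12.6. The causes of these changes were not tested.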
